A study of Mus musculus with 6 samples.

Results

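Th1-like cells were studied among the T cells of B16-F10 tumors, and were taken as CD4+ T cells that held the mRNA of interferon-γ (IFN-γ), Ifng. They were selected on measured transcripts. A cell was a member when it held at least 1 Cd4 and at least 1 Ifng UMI and 0 UMIs of Cd8a, Cd8b1, Foxp3, Il4, Il5 and Il13, a UMI being a tag that counts 1 captured mRNA molecule. The rule found 318 of the 12818 cells in the series. The levels of these 8 genes in the members follow from the rule and are no finding, and all values of other genes describe the cells that the rule selected.

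The T cells were sorted for TCRβ from subcutaneous B16-F10 melanomas, a transplanted mouse melanoma line, and sequenced from the 5′ end in droplets. All animals, controls included, were Foxp3-EGFP-DTR mice, in which the Foxp3 gene also drives a green fluorescent protein and a receptor for diphtheria toxin (DTx), and giving the toxin kills their Treg cells. Per the labels, PBS was given in 3 samples and DTx in 3. The table holds 6 libraries marked by barcode suffix, here called libraries 1 to 6, and no label ties a library to PBS or DTx, so the treatments were not compared and no p-value is given, and the libraries count as 1 pooled sample. By the study's methods the mice were young adults of both sexes.

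Th1 cells are the helper T cells of type 1 immunity. Naive CD4+ T cells take this fate under IL-12 and IFN-γ, whose signals run through STAT proteins to the transcription factor T-bet (Tbx21), which acts at the Ifng locus and on the chemokine receptor gene Cxcr3. Their main product, IFN-γ, activates macrophages and raises antigen presentation by tumor cells, and CD8+ T cells make the same cytokine. Th2 cells, which follow GATA3 and make IL-4, IL-5 and IL-13, are the opposed helper fate.

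The start regions of Ifng, the gene that defines the members, and of Tbx21, its main regulator in this lineage, are shown for reference. Both are the 250 bases before the transcription start in RefSeq (GRCm38.p6), at chr10:118440796-118441045 on the plus strand for Ifng and chr11:97115332-97115581 on the minus strand for Tbx21, and capitals mark matches to 4 short motifs searched on both strands.
Ifng: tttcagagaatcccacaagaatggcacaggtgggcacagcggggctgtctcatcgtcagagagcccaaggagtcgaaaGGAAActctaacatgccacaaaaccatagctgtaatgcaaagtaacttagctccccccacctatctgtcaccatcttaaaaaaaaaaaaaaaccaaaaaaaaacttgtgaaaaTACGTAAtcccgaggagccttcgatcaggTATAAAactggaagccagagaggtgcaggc
Tbx21: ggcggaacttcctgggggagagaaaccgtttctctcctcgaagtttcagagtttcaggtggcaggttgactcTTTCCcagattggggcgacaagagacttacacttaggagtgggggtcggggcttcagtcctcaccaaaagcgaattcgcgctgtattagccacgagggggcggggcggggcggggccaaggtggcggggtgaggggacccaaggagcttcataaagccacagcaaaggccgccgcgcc
Positions count back from -1, the base just before the start. In the Ifng sequence the motif of TATA boxes, TATAAA, lay at positions -30 to -25. The CRE-like motif TACGTAA lay at -59 to -53 and the core of NFAT sites, GGAAA, at -172 to -168. The Tbx21 sequence held TTTCC, which is GGAAA read on the other strand, at -178 to -174. The T-box motif AGGTGTGA matched neither sequence. Of 32851 mouse promoters of this length, 12.4% held TATAAA, 0.432% TACGTAA, 55.6% GGAAA and 1.12% AGGTGTGA. The matches are letters in a sequence and do not show binding. In GENCODE M21 (GRCm38), Ifng lies on chromosome 10 from 118441046 to 118445892 and Tbx21 on chromosome 11 from 97098071 to 97115331.

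Members were compared with 2 populations of the same libraries. CD4+ Tconv cells held Cd4 and no Cd8a, Cd8b1 or Foxp3 UMI (1205 cells), and 856 of them held no Ifng. CD8+ T cells with Ifng held Cd8a or Cd8b1 and no Cd4 or Foxp3 UMI (1520 cells). The median member held 2076.5 UMIs and 918.5 genes, against 1399.5 UMIs in the CD4+ Tconv cells without Ifng and 2529 in the CD8+ T cells with Ifng. Barcodes present in more than 1 library numbered 76, and 3 members carried such a barcode. Library 2 held 2 members, so directions were counted over libraries 1, 3, 4, 5 and 6. Libraries 1 and 3 stood apart from 4, 5 and 6 in some genes of the members: Ccl5 was at 65.4 and 66.0 UMIs per 10000 in the former and 14.2 to 16.9 in the latter, while Ifitm3 was at 0.293 and 3.35 against 15 to 18.1. Markers of other cells were scarce in the members, with 16 UMIs of the myeloid markers (6 of 11 detected, 0 to 0.439 per 10000 by library), 31 of the B cell markers with Cd79a and Cd79b at 0, and 2 of the melanoma markers with 7 of 8 at 0. The NK cell markers summed to 340 UMIs, of which 306 were Gzma, with Ncr1 and Klrb1c at 0, and of the NKT and γδ T cell genes Zbtb16, Trav11 and Trdc were at 0.

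Th1-like cells made up 26.4% of the CD4+ Tconv cells (95% Clopper-Pearson interval 23.9 to 29.0%), and 2.48% of all cells. By library, from 1 to 6, the former percentage was 20.7, 1.32, 18.7, 32.8, 35.5 and 31.4%. Library 2 was the lowest and libraries 4, 5 and 6 the highest. Ifng was found in 4 of 1012 naive-like cells (0.395%, 0.108 to 1.01%; median depth 1004 UMIs), which serve as the background of free RNA and held genes of naive T cells such as Ccr7 and Lef1 and no Gzmb, Ccl5, Nkg7 or Mki67 UMI. It was found in 7 of the 81 naive-like CD4+ Tconv cells, or 8.64%. Both backgrounds come mostly from library 2, which held 696 and 56 of these cells, while libraries 4, 5 and 6 held 7, 4 and 2 naive-like cells, 1 of them with Ifng. Of the naive-like CD4+ Tconv cells, 2 of 12 held Ifng in library 1, 1 of 5 in library 3 and 3 of 6 in library 5, so that in single libraries the background is poorly measured and was not below the Th1-like share in libraries 3 and 5.

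The spread between libraries 1, 3, 4, 5 and 6 varied with the depth at which it was read. When each cell was thinned to 1000 UMIs before Ifng was counted and shallower cells were left out, Th1-like cells were 23.9, 27.5, 23.1, 22 and 22.7% of the CD4+ Tconv cells of libraries 1, 3, 4, 5 and 6, and 1.27% in library 2. At 500 UMIs, which keeps more cells, they were 10.3, 13.0, 14.8, 13.7 and 18.8%, and at 1500 they were 26.9, 23.1, 26.9, 28.6 and 31.0%. The pooled share was 21.1% at 1000 UMIs over 910 cells, 12.7% at 500 and 27.2% at 1500. Of the CD8+ T cells 33.8% held Ifng as deposited, and at 1000 UMIs libraries 4, 5 and 6 were at 36.3, 30.8 and 29.8%, above libraries 1 and 3 at 18.0 and 21.1%. The Th1-like shares of libraries 1 and 3 at 1000 UMIs rest on 88 and 40 cells (intervals 15.4 to 34.1% and 14.6 to 43.9%). At 500 UMIs the Th1-like shares of libraries 4, 5 and 6 were above those of libraries 1 and 3 too. The intervals of this and all other shares and ratios cover counting error only.

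**Figure D1:**
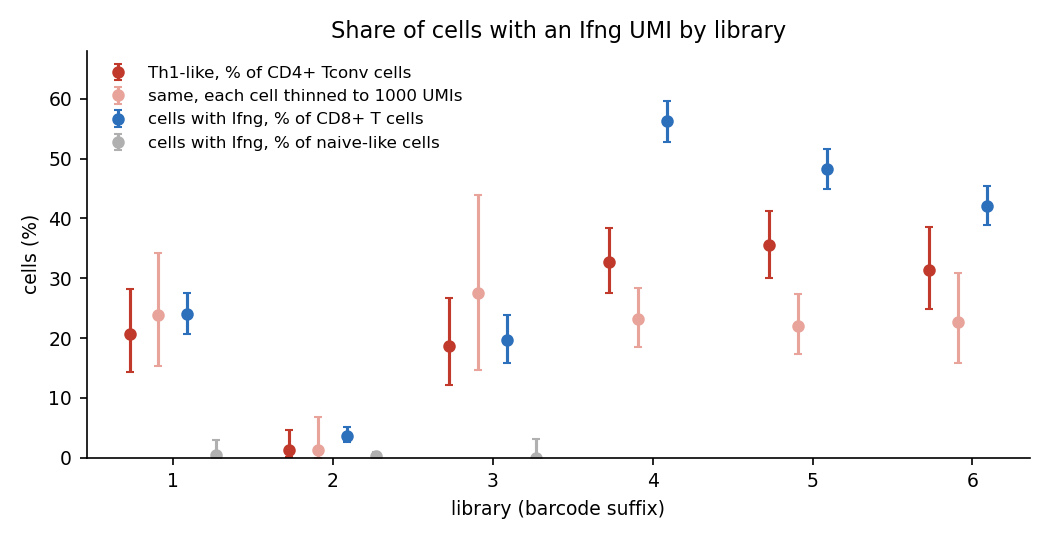
Percent of cells (y axis) by library (x axis) for Th1-like cells among CD4+ Tconv cells, the same after thinning to 1000 UMIs, CD8+ T cells with Ifng and naive-like cells with Ifng. Bars are 95% Clopper-Pearson intervals, groups under 20 cells are not drawn, and the thinned Th1-like shares lie between 22 and 27.5% in every library but library 2.

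Few members carried most of the Ifng. There were 124 members with 1 Ifng UMI (39%), which lie just inside the rule, 142 with 2 to 4 and 52 with at least 5 (16.4%), and the 856 CD4+ Tconv cells with 0 lie just outside it. The 52 cells held 52.5% of the members' 1059 Ifng UMIs, and the highest cell held 45. Per 10000 UMIs and over libraries 1 to 6 in turn, Ifng was at 10.5, 6.90, 19.8, 14.3, 12.7 and 15.9. In CD8+ T cells with Ifng it was at 8.03, 7.54, 10.5, 10.7, 12.7 and 10.3. The median cell of either population held 2 Ifng UMIs. Of all 9372 Ifng UMIs of the series, the members held 11.3% and the CD8+ T cells 52.3%.

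To ask what else set the members apart from other CD4+ T cells, each gene's UMIs in the members were divided by the number expected from its share of UMIs in CD4+ Tconv cells without Ifng of the same library, and both numbers were summed over libraries. Of 4962 genes with at least 50 UMIs, 48 were at least 2-fold higher in the members (0.967%) and 70 at least 2-fold lower (1.41%). In all of libraries 1, 3, 4, 5 and 6, 254 genes were higher (5.12%) and 219 lower (4.41%). The median log2 ratio over all genes was 0.046. The comparison cells still include cells with Il4, Il5 or Il13, which the rule removes from the members, and values without those cells are given for part of the genes and lists.

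The fixed markers of the Th1 fate that the rule did not use were all higher in the members. All 10, among them Tbx21, Cxcr3, Cxcr6, Il12rb2, Il18r1, Il18rap, Bhlhe40, Tnf and Fasl, had a ratio above 1, 3 of them past 2-fold, Tbx21 and Tnf included, and 5 were higher in each of the 5 libraries. Over the list of Th1 factors and receptors, 21 of 24 genes could be measured, 3 were past 2-fold higher, Tbx21 and Ly6c2 included, and 1 lower (Ifngr2), 15 had a ratio above 1, 7 were higher in all 5 libraries, and the median log2 ratio was 0.47, also when cells were matched by depth, and 0.31 against comparison cells without Il4, Il5 and Il13, where Ifngr2 fell under 2-fold too (-0.52, and -0.49 without library 4). By library the median was 0.0068, 0.18, 0.42, 0.48 and 0.17 in libraries 1, 3, 4, 5 and 6.

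Among the transcription factors, Tbx21 was at 0.439, 0.373, 0.926, 0.604 and 0.821 UMIs per 10000 in the members of libraries 1, 3, 4, 5 and 6. In CD4+ Tconv cells without Ifng it was at 0.356, 0.192, 0.403, 0.155 and 0.614. The members were higher in every library, but the ranges overlapped. The ratio was 2.23 (95% Poisson interval 1.69 to 2.90), from 56 UMIs in 45 of the 318 cells (14.2%, against 5.61% of the comparison cells). It fell under 2-fold without library 5 (log2 ratio 0.90) and against comparison cells without Il4, Il5 and Il13 (0.80). Bhlhe40, a factor that sustains cytokine production, was at 13.5 to 15.2 UMIs per 10000 in the members and 5.35 to 12.3 in the comparison cells, so that the ranges did not overlap, with a ratio of 1.35 (1.27 to 1.43). Stat4, which carries the IL-12 signal, had a ratio of 1.33 (1.08 to 1.62) and Id2 1.35, whereas Runx3, which binds with T-bet at Ifng, was at 0.95.

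The receptors that mark or drive the fate ranged more widely. Il18r1, a subunit of the IL-18 receptor, was at 1.61, 0.745, 2.30, 1.71 and 1.54 UMIs per 10000 in the members against 1.07, 0.673, 1.16, 1.11 and 1.28, higher in every library, with a ratio of 1.66 (1.40 to 1.95). Cxcr6, a chemokine receptor of tissue T cells, had a ratio of 1.53 (1.35 to 1.74) and Ifngr1, which binds IFN-γ itself, 1.38 (1.27 to 1.5), also in every library. Cxcr3 had a ratio of 1.42 (1.15 to 1.74) and the IL-12 receptor subunit Il12rb2 1.89 (1.35 to 2.58, 40 UMIs). Il27ra, the IL-27 receptor, was lower in every library (log2 ratio -0.56).

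**Figure D2:**
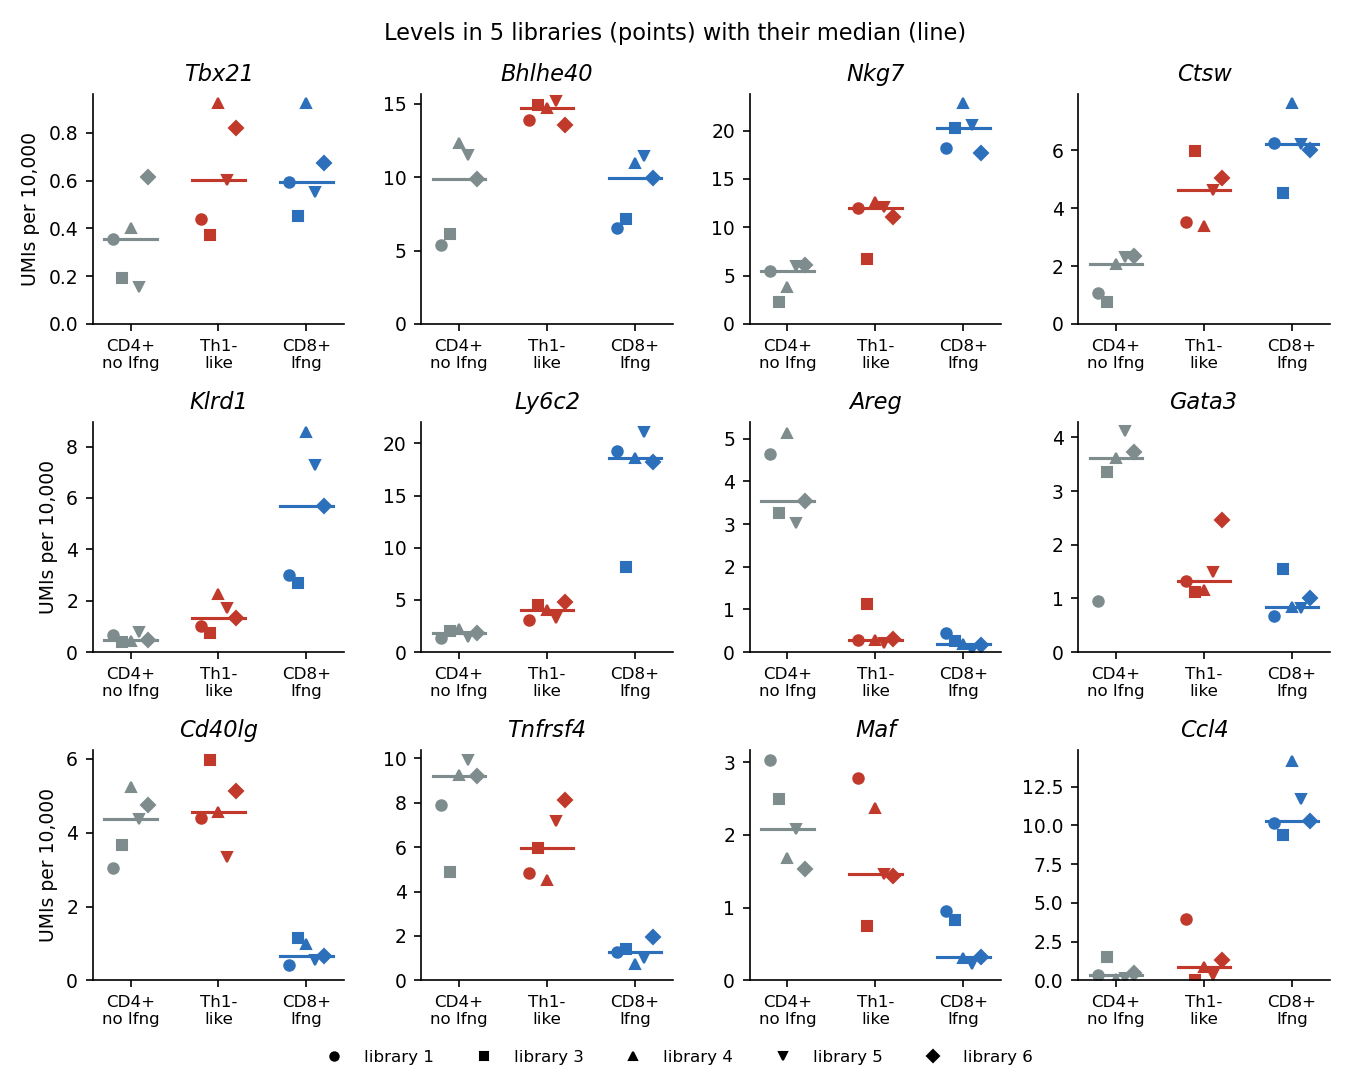
UMIs per 10000 (y axes, each from 0) of 12 genes in CD4+ Tconv cells without Ifng (grey), Th1-like cells (red) and CD8+ T cells with Ifng (blue); points are libraries 1, 3, 4, 5 and 6 and lines their median. The median of the members lies between those of the other populations for Nkg7, Klrd1 and Ly6c2, above both for Bhlhe40, and near that of the CD4+ cells for Cd40lg.

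Cytotoxic and killer-receptor genes were among the largest differences from other CD4+ Tconv cells. Of 13 measured cytotoxic genes 9 had a ratio above 1 and 4 a ratio below 1 (median log2 ratio 0.42). Past 2-fold, 4 were higher and 0 lower, and 5 were higher in all 5 libraries. Cst7 was lower, at log2 ratios of -0.81, -0.83 and -1.42 in members with 1, 2 to 4 and at least 5 Ifng UMIs. The 4 genes past 2-fold higher were Nkg7, Ctsw, Gzma and Gzmk. Of these, Nkg7 stayed past 2-fold without any 1 library, and Gzmk, a granzyme, went from 1.22 to 0.91 without library 5. Nkg7, a protein of cytotoxic granules, was at 12, 6.71, 12.7, 12.1 and 11.1 UMIs per 10000 in the members and at 5.53, 2.31, 3.85, 6.03 and 6.08 in the comparison cells. The ranges did not overlap, and the ratio was 2.39 (2.23 to 2.55). Nkg7 was found in 72.6% of the members and 33.2% of the comparison cells, and at 1000 UMIs per cell in 57.8 and 29.1%. Ctsw, a protease of killer lymphocytes, did not overlap either, with a ratio of 2.03 (1.81 to 2.26). Its log2 ratio of 1.02 was 0.96 without library 3, also under 1 without library 1, and 0.62 against comparison cells without Il4, Il5 and Il13.

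Klrd1, which encodes the CD94 chain of NKG2 receptors, was at 1.02, 0.745, 2.26, 1.71 and 1.33 UMIs per 10000 in the members and 0.654, 0.385, 0.420, 0.798 and 0.460 in the comparison cells. It was higher in every library with a ratio of 3.04 (2.55 to 3.59), and 70 members held it. Its partner Klrc1 (NKG2A) had a ratio of 2.52. Of the 5 measured genes of the CD8 lineage and NK receptors, 3 were past 2-fold higher (Klrd1, Klrc1 and Klrk1) and 2 had a ratio below 1. The median log2 ratio of the 5 was 1.32, or 0.74 against comparison cells without Il4, Il5 and Il13. Without library 5 the log2 ratios of Klrc1 and Klrk1 fell to 0.72 and 0.31. Against comparison cells without Il4, Il5 and Il13 they were 0.74 and 0.99 and that of Klrd1 was 1.16. Ly6c2, a surface protein of effector T cells and monocytes, had a ratio of 2.12 (1.89 to 2.38) with no overlap, which came to a log2 ratio of 0.72 against comparison cells without Il4, Il5 and Il13.

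The granzymes and chemokines rested on few cells. Gzma had a ratio of 3.15, but its 306 UMIs lay in 43 members, 75 of them in 1 cell, and it was lower in 2 libraries, with a log2 ratio of -0.10 without library 4. Against comparison cells without Il4, Il5 and Il13 its log2 ratio went from 1.65 to 1.26. Gzmb, the main granzyme of killer cells, was found in 85 members with a ratio of 1.33 (1.17 to 1.51) and was higher in every library. Prf1, which encodes the pore-forming perforin, was detected with 6 UMIs. Ccl4, a chemokine that draws T cells and macrophages, had 75 UMIs in 22 cells, of which the 5 highest held 70.7%. Xcl1 had 47 UMIs in 11 cells, 30 of them in 1 cell. Ccl5 was spread over 121 members with a ratio of 1.93 (1.84 to 2.03).

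Among other cytokines, Tnf and Lta were past 2-fold higher, Areg and Tnfsf11 were past 2-fold lower, and the direction of Csf2 depended on the comparison cells. Tnf was at 1.17, 1.49, 1.03, 0.995 and 2.67 UMIs per 10000 in the members and 1.25, 1.35, 0.370, 0.643 and 0.665 in the comparison cells, with a ratio of 2.05 (1.66 to 2.49), and it was higher in all but library 1. Its log2 ratio of 1.02 fell to 0.79 without library 6, was also under 1 without library 4, and was 0.97 against comparison cells without Il4, Il5 and Il13. Lta, lymphotoxin-α, had 38 UMIs in 23 cells and a ratio of 3.20. Il2 and Il21 were detected with 8 and 6 UMIs. Of 11 measured cytokine genes, 2 were past 2-fold higher and 3 lower (Csf2, Areg and Tnfsf11), with a median of -0.13, or 0.28 against cells without Il4, Il5 and Il13. Csf2, which encodes GM-CSF, shows how far those cells set the comparison: its log2 ratio was -1.77 with them and 0.97 without, and -0.40 without library 4. Tnfsf11 moved from -1.38 to -0.99 without the Th2-cytokine cells.

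Areg was among the lowest genes of the members in this comparison. It encodes amphiregulin, an epidermal growth factor receptor ligand made by Treg and type 2 cells. It was at 0.293, 1.12, 0.274, 0.213 and 0.308 UMIs per 10000 in the members and at 4.63, 3.27, 5.14, 3.04 and 3.53 in the comparison cells, without overlap. The members held 22 UMIs where 310 were expected, a ratio of 0.0709 (0.0444 to 0.107). The log2 ratio was -3.79, and -3.01 against cells without Il4, Il5 and Il13. Il10 was at 0 UMIs in the members where 17 were expected, at least 5.66-fold lower by a limit of 3 counts. Most of these expected counts came from the Th2-cytokine cells, since without them the log2 value for Il10 was -0.62.

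Genes of the Th2 fate were lower, of which part follows from the rule. Of 12 measured genes 6 were past 2-fold lower and 0 higher, with a median log2 ratio of -0.97, or -0.46 against cells without Il4, Il5 and Il13. Gata3 was at 1.32, 1.12, 1.17, 1.49 and 2.46 UMIs per 10000 in the members and at 0.951, 3.37, 3.61, 4.12 and 3.73 in the comparison cells. It was lower in all but library 1, with a ratio of 0.41 (0.337 to 0.493) and a log2 ratio of -1.28, or -0.95 without the Th2-cytokine cells. Il1rl1, the IL-33 receptor, had -1.41 and -0.84 (-0.49 without library 4), and Ccr4 had -1.07 and -0.65 (-0.57 without library 4, and also short of 2-fold without library 1). Calca, the calcitonin and CGRP gene, had 1 UMI where 34.9 were expected (-4.56, and -2.56 without those cells), while Hdc, histidine decarboxylase, turned from -2.68 to 0.29. Ccr8 was at -0.84 and -0.38.

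Several further groups differed little. None of the 19 measured IFN-γ response genes was past 2-fold (median log2 ratio -0.033). Irf1, a transcription factor of the response, was at 0.18. Tap2, a peptide transporter of antigen presentation, was higher in every library without overlap, at 0.42. Of 15 checkpoint and costimulatory receptors 0 were past 2-fold higher and 1 lower, with Pdcd1 at 0.37, Ctla4 at 0.13, Icos at 0.04 and Havcr2 (TIM-3) at -0.68. Their median was -0.36, or -0.09 against cells without Il4, Il5 and Il13. Among 25 activation genes 1 was past 2-fold higher, Myc at 1.17 (0.92 without library 5), while the early activation marker Cd69 had a ratio of 1.97 and was higher in all but library 1. The 16 glycolysis genes had a median of -0.093 with 0 past 2-fold. Of 10 naive and homing genes 2 were lower, Ccr7 at -1.06 (-0.74 without library 2, and also short of 2-fold without library 3) and Igfbp4 at -1.23 (-0.93 without library 3), and Tcf7 was at -0.92. Against cells without Il4, Il5 and Il13, Ccr7 was at -0.97 and so short of 2-fold.

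Cell cycle genes were higher in part of the libraries. Of 18 measured genes 3 were past 2-fold higher (Ccna2, Cdk1 and Rrm2) and the median log2 ratio was 0.49, with 17 above 1 as a ratio. Without library 4 Rrm2 fell from 1.13 to 0.67, and without library 5 Ccna2 fell to 0.93. Cells with at least 2 of 7 cycle genes were 12.9% of the members (41 of 318, 9.41 to 17.1%), 7.01% of the CD4+ Tconv cells without Ifng and 20.9% of the CD8+ T cells with Ifng. By library they were 3.33, 0, 12, 21.2 and 10.2% of the members of libraries 1, 3, 4, 5 and 6. In the CD4+ Tconv cells without Ifng of these libraries they were 1.74, 2.02, 8.38, 16.1 and 7.81%. The pooled shares are not matched by library, and in library 3 the members were lower. The members were deeper than the comparison cells, and a part of depth in these shares was not tested.

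Outside the fixed lists, the genes highest against CD4+ Tconv cells in every library included the T cell receptor gene segment Trav6-7-dv9 (log2 ratio 1.73), the creatine kinase Ckb (1.44), Srd5a3, an enzyme of dolichol synthesis (1.35), and the stress gene Gadd45g (1.16). Gadd45g was at 2.20, 2.61, 3.67, 2.45 and 5.03 UMIs per 10000 in the members and 0.891, 1.06, 1.14, 1.91 and 1.48 in the comparison cells, without overlap, and its log2 ratio was 0.85 without library 4. It has been described as an amplifier of p38 signalling to IFN-γ in Th1 cells. Trav6-7-dv9 was found in 20 of the 176 members with any Trav UMI (11.4%, 7.08 to 17%) and in 4.90% of the comparison cells, with 9 of the 20 in library 4. Reads of near-identical Trav segments can be split between them, so that this value is uncertain. Among the lowest were Cysltr1, a leukotriene receptor (-4.48), the decoy receptor Il1r2 (-2.42), the invariant chain Cd74 (-2.34) and the phosphatase Dusp10 (-1.55). Without the Th2-cytokine cells, Cd74 was at -1.44. Cd74 is also abundant in myeloid and B cells, and the myeloid markers summed to 0 to 0.439 UMIs per 10000 in the members by library and to 0.307 to 1.54 in the comparison cells; their part in this value was not tested. Dusp10 was lower in every library, with a ratio of 0.339 (0.267 to 0.424), and at -1.56 without the Th2-cytokine cells.

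Against CD8+ T cells that also held Ifng, the median of the Th1 genes was near that of all genes, and the members kept a helper profile. Of 7041 genes with at least 50 UMIs, 101 were at least 2-fold higher in the members (1.43%) and 179 lower (2.54%), with 365 higher (5.18%) and 409 lower (5.81%) in all 5 libraries, and a median log2 ratio of 0.048. Of 21 measured Th1 factors and receptors 0 were past 2-fold higher and 2 lower, Eomes and Ly6c2, and the median was 0.038. In all 5 libraries, 3 of them were higher and 4 lower. Of the 10 fixed markers, 7 had a ratio above 1 and 0 were past 2-fold, with log2 ratios from -0.77 to 0.51. Tbx21 had a ratio of 1.02 (0.773 to 1.33), so that a difference was not detectable at this depth. Bhlhe40 was higher without overlap, with a ratio of 1.40 (1.32 to 1.48), and Cxcr6 was at 1.43 (1.26 to 1.62). Eomes, the T-box factor of CD8+ T cells, had 7 UMIs where 35.0 were expected.

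Helper genes were higher than in the CD8+ T cells. Of 8 measured CD4 lineage genes 4 were past 2-fold higher and 0 lower (median log2 ratio 1.03). Cd40lg, the CD40 ligand by which helper cells license dendritic cells and B cells, was at 4.39, 5.96, 4.56, 3.34 and 5.13 UMIs per 10000 in the members and 0.415, 1.16, 0.987, 0.559 and 0.655 in the CD8+ T cells. The ranges did not overlap, and the ratio was 5.69 (5.09 to 6.35). It was found in 49.7% of the members, 42.3% of the CD4+ Tconv cells without Ifng, 11.4% of the CD8+ T cells and 13.4% of naive-like cells. Against other CD4+ Tconv cells its ratio was 0.91 (0.82 to 1.02).

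Tnfrsf4, the costimulatory receptor OX40, was at 4.83, 5.96, 4.53, 7.18 and 8.11 UMIs per 10000 in the members and 1.27, 1.42, 0.748, 0.999 and 1.98 in the CD8+ T cells, with a ratio of 5.71 (5.20 to 6.25). Maf, a factor of several helper fates, had a ratio of 5.32 (4.49 to 6.26) and was higher in all but library 3. Of 12 cytokine genes 5 were past 2-fold higher (Cd40lg, Tnfsf8, Tnfsf11, Lta and Csf1), of which Csf1 fell under 2-fold without library 5 (log2 ratio 0.93). Tnfsf11, which encodes RANKL, had a ratio of 4.02 (2.98 to 5.30), and Lta 3.50 (2.48 to 4.81). Further genes higher in every library were Lgals7, a galectin (11.2), the CGRP and adrenomedullin receptor partners Ramp1 (8.92) and Ramp3 (5.75), and the protease Furin (3.07). Against CD4+ Tconv cells without Ifng of the same library and depth quartile, Lgals7, Ramp1, Ramp3 and Tnfrsf4 were lower in the members. In members with 1, 2 to 4 and at least 5 Ifng UMIs, Lgals7 was at log2 ratios of -1.25, -2.22 and -2.34. Ramp3 was at -1.28, -1.37 and -2.62, Ramp1 at -1.21, -0.67 and -0.87, and Tnfrsf4 at -0.42, -0.89 and -0.46. Furin was higher, at 0.66, 0.20 and 1.75.

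Killer genes were lower than in the CD8+ T cells, although 9 of 13 measured cytotoxic genes had a ratio above 1 against other CD4+ Tconv cells. Of 16 measured cytotoxic genes 7 were past 2-fold lower and 0 higher (median log2 ratio -0.77), and 8 were lower in all 5 libraries. Nkg7 was at 18.2, 20.3, 22.8, 20.6 and 17.7 UMIs per 10000 in the CD8+ T cells, above all members' values, with a ratio of 0.574. Gzmb had a ratio of 0.259 (0.228 to 0.294) and Gzma 0.147 (0.131 to 0.164). Prf1 was at 6 UMIs where 28.9 were expected. Fasl, by which T cells kill through Fas, was near-equal at a log2 ratio of -0.05. Of 8 genes of the CD8 lineage and NK receptors 6 were past 2-fold lower (median -1.65). Klrd1 had a ratio of 0.252 (0.212 to 0.298), Klre1 was at 0 UMIs, at least 8.26-fold lower by a limit of 3 counts, and the checkpoint receptor Cd160 had 5 UMIs where 82.3 were expected.

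Chemokines were lower too. Ccl4 was at 3.95, 0, 0.892, 0.320 and 1.33 UMIs per 10000 in the members and 10.1, 9.40, 14.2, 11.7 and 10.3 in the CD8+ T cells, with a ratio of 0.0794 (0.0624 to 0.0995). Ccl5 had a ratio of 0.203 (0.193 to 0.213), and was found in 38.1% of the members and 90.1% of the CD8+ T cells. Of 6 measured chemokines 4 were past 2-fold lower and 0 higher. Tnf was at 1.33 (1.08 to 1.62). None of 24 IFN-γ response genes was past 2-fold (median -0.11). Ifitm3, a type I interferon-induced gene, was higher in every library at 3.63, while Pdcd1 was at a log2 ratio of -0.02 and Icos at 0.95. The 19 cell cycle genes had a median of 0.13 with 0 past 2-fold.

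**Figure D3:**
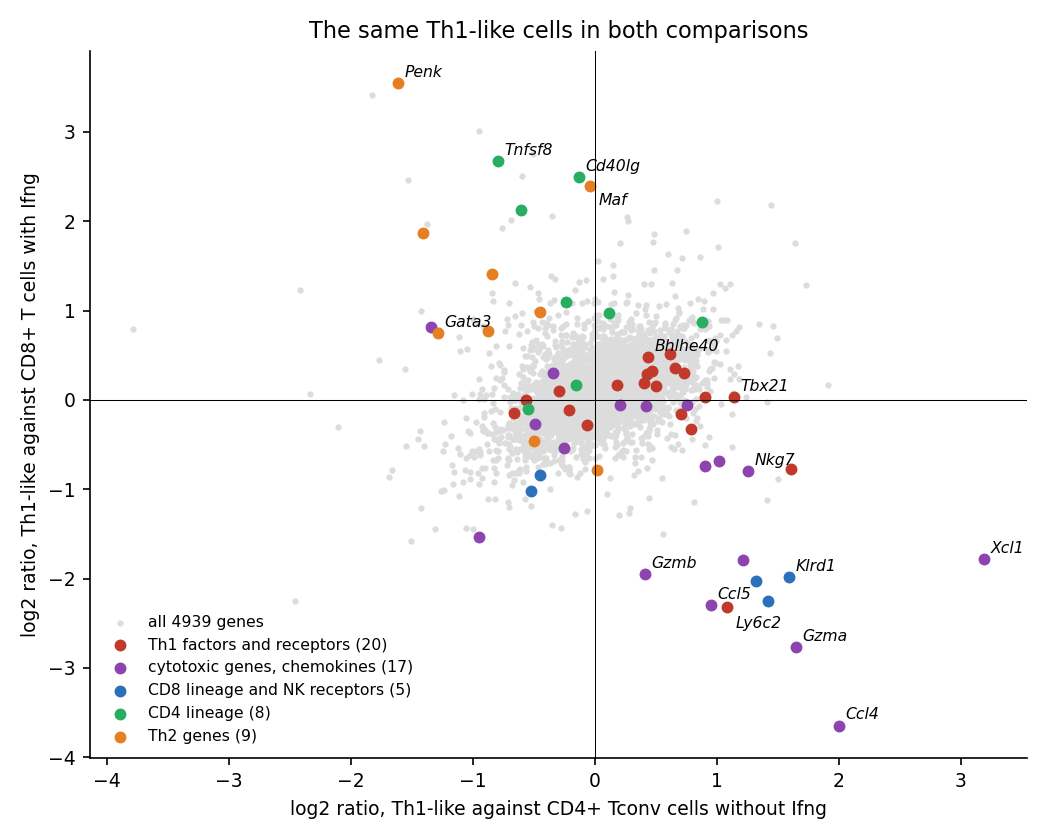
Log2 ratio of Th1-like cells to CD4+ Tconv cells without Ifng (x axis) and to CD8+ T cells with Ifng (y axis) for 4939 genes, with 5 gene groups in color. Both axes share the Th1-like cells; killer genes such as Nkg7, Klrd1, Gzma and Ccl4 lie at the lower right, and helper genes such as Cd40lg and Maf at the top near 0 on the x axis.

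Killer and helper genes occurred in the same members. Nkg7 and Cd40lg were found together in 118 cells (95% Poisson interval 97.7 to 141), where 116 were expected if both were spread independently within libraries. Nkg7 and Tnfrsf4 were found together in 116 cells with 110 expected, Ly6c2 and Tnfrsf4 in 43 with 44.7 expected, and Tnfrsf4 and Cd40lg in 81 with 73.8 expected. Within library and depth quartile, 120 were expected for Nkg7 and Cd40lg and 114 for Nkg7 and Tnfrsf4. For Ly6c2 and Tnfrsf4 it was 47.4, and for Tnfrsf4 and Cd40lg 80.8. Among killer genes, Ly6c2 and Nkg7 were found together in 81 cells with 69.5 expected and Klrd1 and Nkg7 in 61 with 52.9 expected, within the counting intervals. With depth quartile matched too, 72.3 and 53.6 were expected. No split of the members into a helper and a killer part was detectable from these pairs at this depth.

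Some killer, cytokine and stress transcripts were highest in the members with most Ifng. Cells with 1, 2 to 4 and at least 5 Ifng UMIs had medians of 1800, 2069.5 and 2636.5 UMIs, and were each compared with CD4+ Tconv cells without Ifng of the same library and depth quartile. The log2 ratio of Klrd1 was 0.89, 1.79 and 2.20, that of Nkg7 1.01, 1.07 and 1.65, and that of Tnf 0.60, 0.68 and 2.12. Gadd45g was at 0.50, 0.60 and 2.38, Lta at 0.97, 0.61 and 2.62 from 10, 9 and 19 UMIs, and Furin at 0.66, 0.20 and 1.75. For Tnf and Nkg7 the interval of the cells with at least 5 Ifng UMIs lay above those of the others. Tbx21 had 0.79, 1.04 and 1.61 with intervals that overlapped, and Bhlhe40 0.30, 0.48 and 0.54. The median of the Th1 factors and receptors was 0.30, 0.38 and 0.62. Cxcr3 was at 0.81, 0.30 and -0.09, from 45, 37 and 12 UMIs and with intervals that overlapped. Gata3 was at -1.36, -1.18 and -1.40 and Cd40lg at 0.08, -0.27 and -0.19. Areg was at -3.89 in the cells with 1 Ifng UMI and -2.83 in those with at least 5, so that the cells just inside the rule shared the gap. The comparison cells include those with Il4, Il5 or Il13, which the rule removes from all members, so part of the gap in Gata3 and Areg follows from the rule. Over all members and without those cells, Gata3 went from -1.28 to -0.95 and Areg from -3.79 to -3.01.

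**Figure D4:**
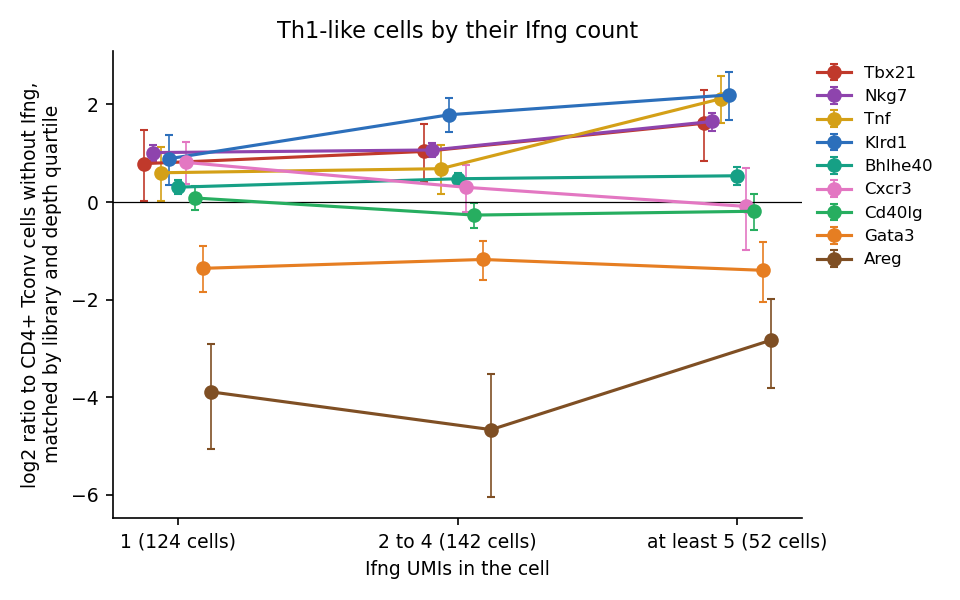
Log2 ratio to CD4+ Tconv cells without Ifng of the same library and depth quartile (y axis) for 9 genes in Th1-like cells with 1, 2 to 4 and at least 5 Ifng UMIs (x axis). Bars are 95% Poisson intervals of the members' counts, and the comparison cells include those with Il4, Il5 or Il13. Tnf is at 0.60, 0.68 and 2.12 and Gata3 stays between -1.40 and -1.18.

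Cells with both Ifng and a Th2 cytokine were fewer than expected over the pooled libraries. Of the 1205 CD4+ Tconv cells, 142 held Il4, Il5 or Il13, and 31 of these also held Ifng (Poisson interval 21.1 to 44.0), where 52.7 were expected within libraries and 55.6 within library and depth quartile. These 31 cells are left out of the members by the rule. Libraries 4 and 5 held 14 and 15 of them, libraries 3 and 6 held 1 each, and libraries 1 and 2 held 0. For Il4 alone, 19 cells were found (11.4 to 29.7) and 40.7 expected within library and depth quartile. Ifng and Areg were found together in 24 cells (15.4 to 35.7) with 46.0 expected, and Ifng and Gata3 in 102 (83.2 to 124) with 135 expected.

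Genes of the Th1 side lay above the expected number. Ifng and Tbx21 were found together in 57 CD4+ Tconv cells (43.2 to 73.9) with 38.9 expected within library and depth quartile, and Ifng and Tnf in 70 (54.6 to 88.4) with 51.1 expected. Ifng and Cxcr3 were found in 77 (60.8 to 96.2) with 63.2 expected, within the interval, as were Ifng and Ccr8 in 40 (28.6 to 54.5) with 43.3 expected and Ifng and Csf2 in 28 (18.6 to 40.5) with 26.0 expected.

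**Figure D5:**
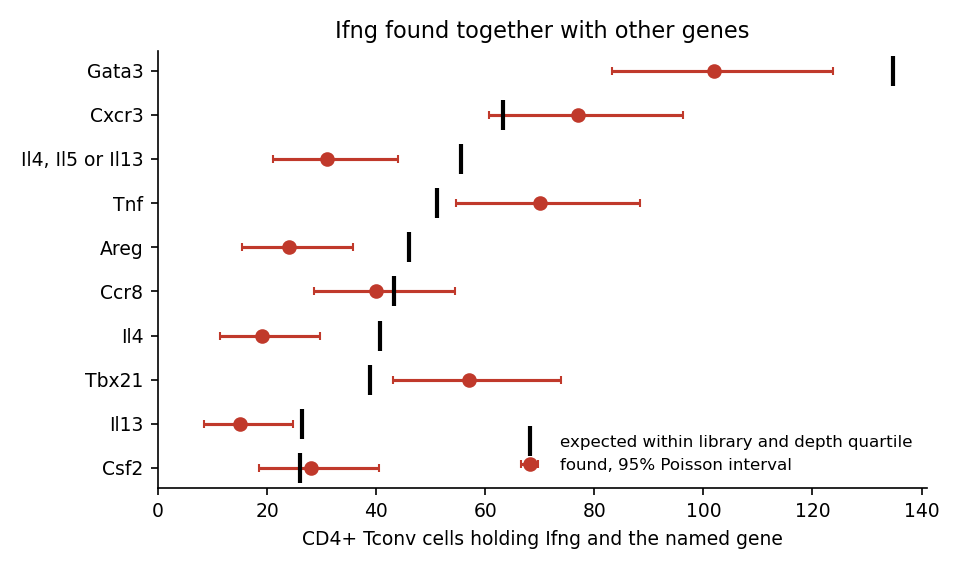
Number of CD4+ Tconv cells that held Ifng together with the named gene (x axis; points with 95% Poisson intervals) and the number expected within library and depth quartile (black marks), for genes with at least 15 expected. Tbx21 and Tnf lie above the expected number and Il4, Areg and Gata3 below it.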

How the data were processed

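Single-cell RNA sequencing was performed on TCRβ+ T cells from B16-F10 tumors with 5′ droplet chemistry. Per the authors' methods, reads were mapped to mm10, libraries were merged with cellranger aggr and cells filtered in Seurat; the submitters' processing notes name mm9, Cell Ranger and Seurat, and the table has no coordinates. The authors deposited UMI counts as whole numbers, 1 value for each gene and cell, without normalization (14597 genes, 12818 cells, 21816565 UMIs in all, 201 to 2494 genes per cell). No doublet caller was run; very deep cells were left out as an alternative.

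Here, cells were gated on the counts as described. Each gene's ratio set its UMIs in the members over those that its UMI share in the comparison cells predicts, library by library and then summed, with 0.5 added to both on the log2 scale, and genes of the rule (8) were left out. Genes needed 50 UMIs over both populations, and past 2-fold was the call. Cells are not replicates and the 6 libraries form 1 pooled sample, so no test was run. Intervals are 95% exact Poisson intervals of the members' counts for ratios (the comparison cells' own counting error is not included) and Clopper-Pearson intervals for shares; both cover counting error only. A count of 0 was given a limit of 3 counts. The method was tested on simulated data: in the comparison with CD4+ Tconv cells 100% of the 50 genes at each size, set at a log2 ratio of 1.5 or 2 in either direction, were past 2-fold, as were 0.628% of the 4777 genes left at 0. In the comparison with CD8+ T cells it was 98% at 1.5, 100% at the other sizes and 1.85% of 6823 genes left at 0. The changed genes were drawn only from genes with far more UMIs than the minimum of 50, so recovery near that minimum was not tested. Counts were Poisson draws, so genes whose UMIs pile up in few cells, such as Gzma and Xcl1, were not covered.

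Genes of 26 lists could be named, and beyond these the 12 highest and 12 lowest in each comparison that went the same way in every library. Some genes of these lists are not reported here. The members and lists were chosen with earlier results of these data known. Alternatives changed the gate, depth, matching, minimum UMIs, pseudocount, comparison cells and libraries. Scripts ran in Python 3.11.15 with numpy 2.4.6, scipy 1.17.1, pandas 2.3.3 and matplotlib 3.10.9.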

Additional observations from a re-analysis of the deposited data

Results flagged for a closer look

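Ifng was also found in cells outside every population compared. Cd4, Cd8a, Cd8b1 and Foxp3 were all at 0 in 6838 cells, and of these 1024 held an Ifng UMI (15%, 95% Clopper-Pearson interval 14.1 to 15.8%), above the 0.395% of naive-like cells, of which 696 of 1012 lay in library 2 and 7, 4 and 2 in libraries 4, 5 and 6. These cells held 29.7% of all Ifng UMIs at a median depth of 1386 UMIs. Their lineage was not assigned here, and the number of Th1-like cells is therefore a count of those with a Cd4 UMI.

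In the group that the rule leaves out, 31 CD4+ Tconv cells held Ifng together with Il4, Il5 or Il13. Their median depth was 4776 UMIs against 2076.5 in the members, and the part of doublets in this number was not tested.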

How the results depend on the processing

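No paired analysis was possible because no label ties a library to a sample, so the replicate numbers of the labels are on no cell. The share of Th1-like cells (26.4%) was 16.1% with at least 2 Ifng UMIs, and 12.7 and 21.1% with cells thinned to 500 and 1000 UMIs. Leaving out 1 library gave 23.5% (without library 5) to 30.0% (without library 2). The Th1 median of 0.47 was 0.25 with at least 2 Cd4 UMIs, where 74 members and 12 genes remained, and 0.44 to 0.51 without 1 library. Against CD4+ Tconv cells, genes past 2-fold (48 higher, 70 lower) numbered 21 and 42 with at least 2 Cd4 UMIs, 182 and 238 at a minimum of 20 UMIs and 1131 and 1467 with no minimum. The lower genes numbered 32 against comparison cells without Il4, Il5 and Il13. Leaving out 1 library gave 36 to 50 higher and 46 (without library 4) to 79 lower. Against CD8+ T cells (101 and 179) they numbered 232 and 532 with at least 2 Cd4 UMIs, 265 and 446 at 20 UMIs, 1047 and 1287 with no minimum, and 85 to 114 and 142 to 216 without 1 library. Fewer members or fewer UMIs per gene widen the counting error of each ratio. Cxcl3 turned from -2.60 to 3.08 against cells without Il4, Il5 and Il13, its 6 UMIs lying in 1 member. Of the values of the genes named for the size of their ratio, 26 fell under 2-fold with the same direction, 765 stayed and 1, that of Cxcl3, turned. Of 49 ratios of genes of the text, some of them counted there too, 20 fell under 2-fold without at least 1 library, 16 against cells without Il4, Il5 and Il13, and 24 under either; 3 turned, Csf2 (0.97) and Hdc (0.29) without those cells and Gzma (-0.10) without library 4. Depth limits what can be said of low genes such as Tbx21 (56 UMIs).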

Other observations

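Cells with both Cd4 and Cd8a or Cd8b1 UMIs were left out of every population. They numbered 168, of which 98 held Ifng (58.3%, 95% Clopper-Pearson interval 50.5 to 65.9%), and they held 4.55% of all Ifng UMIs; the median depth of these 98 cells was 5045.5 UMIs. Of 115 cells with a Foxp3 UMI, 21 held Ifng.

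The use of T cell receptor β segments was broad in the members. Of 260 members with a Trbv UMI, Trbv13-2 was found in 49 (18.8%, 14.3 to 24.1%) and in 21.8% of the CD4+ Tconv cells without Ifng. Trbv3 was found in 36 (13.8%), 19 of them in library 4, and in 13.6% of the comparison cells. Similar segments can share reads, so that these shares are uncertain.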
